A study of Mus musculus with 20 samples.

Results

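The mRNAs of 81 cytosolic ribosomal proteins were followed gene by gene through the transcriptome and the translatome of the brain in "Taiwanese" mice, a model of severe spinal muscular atrophy (SMA). The 81 genes encode 34 proteins of the small (40S) subunit and 47 of the large (60S) subunit. They were taken from the 45700 genes of the deposited table by their names (Fau, or Rpl, Rps, Rplp and Rpsa names), by annotation as protein coding and by a mean of at least 1 FPKM (fragment density scaled to transcript length and library size) over the 20 libraries, a level that 15247 genes reached. Names matched 89 rows, of which 85 were protein coding. The members were thus chosen by their mean FPKM, and these levels are given as a description. The members with the lowest means were Rps4l at 11.06 FPKM and Rpl7l1 at 19.13 FPKM, while Rpl39l at 0.2025, Rpl3l at 0.0855 and Rpl10l at 0.0045 FPKM lay outside. Rpl13 was also left out, because it was listed at 0 in both early-symptomatic control polysomal libraries.

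All mice were congenic FVB and carried the human SMN2 transgene on one allele. SMA mice were Smn-/-; SMN2tg/0, and controls were their phenotypically normal Smn-/+; SMN2tg/0 littermates, so that the controls also lacked one Smn allele. Brains were taken at postnatal day 5 (early-symptomatic, 2 replicates per genotype) and day 7 (late-symptomatic, 3 replicates per genotype). RNA was extracted from all pooled sucrose gradient fractions (total cytoplasmic RNA, RNA-seq) or from the polysomal fractions alone (polysomal RNA, POL-seq), which gave 8 groups. Each value is the level of an mRNA in a whole brain, where fewer cells of a type and less RNA per cell cannot be told apart. Whether the libraries of both days were prepared together is not given in the sources used here, so age and preparation cannot be told apart.

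Ribosomal proteins join ribosomal RNA to form the 2 subunits that read and translate mRNAs. Most of their mRNAs begin with an uninterrupted run of pyrimidines at the cap, the 5′ terminal oligopyrimidine (TOP) motif, which also occurs in mRNAs of elongation factors. Binding of LARP1 to this motif, under the control of the kinase mTOR, moves these mRNAs between polysomes and untranslated particles, so that ribosome production follows growth. Several members have a second, closely related gene (a paralogue, such as Rpl22 and Rpl22l1) whose product can take the same place in the ribosome.

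The start-site sequences of members with low and high polysome association are shown because the TOP motif lies there. The sequences were taken from RefSeq (GRCm38.p6) and run 5′ to 3′ on the gene's own strand, from 10 bases before the annotated start onward, with the longest run of C and T of each window in capitals. The first 4 belong to the members with the lowest polysome association among those with a sequence, the next 4 to those with the highest, and the last to the paralogue Rpl22l1. For Rps27l the first of 2 annotated starts is shown.
Rps2 (chr17:24720053-24720082, plus strand): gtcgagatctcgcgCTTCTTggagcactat
Rps12 (chr10:23787190-23787219, minus strand): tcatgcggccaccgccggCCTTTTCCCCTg
Rpl41 (chr10:128549149-128549178, minus strand): gggccggCTCggaagtgacgacaccgagca
Rplp0 (chr5:115559457-115559486, plus strand): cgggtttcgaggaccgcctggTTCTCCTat
Rpl7l1 (chr17:46782637-46782666, minus strand): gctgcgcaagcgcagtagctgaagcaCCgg
Rps27l (chr9:66946076-66946105, plus strand): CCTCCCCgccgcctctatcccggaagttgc
Rpl27 (chr11:101442235-101442264, plus strand): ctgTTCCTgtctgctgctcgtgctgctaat
Rpl18 (chr7:45718061-45718090, plus strand): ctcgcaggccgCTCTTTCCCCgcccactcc
Rpl22l1 (chr3:28805498-28805527, plus strand): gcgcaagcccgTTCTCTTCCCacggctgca
Of the 81 members, 60 had a sequence. A run of at least 7 bases that were each C or T, within 30 bases on either side of an annotated start and on the gene's own strand, was present in 41 of them (68.3%), against 37.4% of all 27025 genes in the sequence table and 38.2% of mitochondrial ribosomal protein genes. The share was 68.0% for 40S and 68.6% for 60S genes. On the opposite strand, 18 of the 60 members and 41.1% of all genes had such a run. The median polysome association in control brains at day 7 (defined below as a log2 difference) was -0.81 for members with the run and -0.77 for the 19 without it. For the 21 members with no sequence it was -0.94. The run was counted anywhere in the window and not at the cap alone, so these medians do not test the TOP motif. Among the printed windows, Rps12 and Rpl18 hold long runs and Rpl41 and Rpl27 short ones, and each of these pairs joins a member of low and one of high association.

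Several libraries and genes stood apart. Counts and medians of the members that rest on single libraries are given with and without them. The other gene lists and single genes are given with all libraries unless stated. The median level of the members was 657 and 622 FPKM in the early-symptomatic control total libraries, and 388 and 626 FPKM in SMA replicates 1 and 2. All 81 members were lower in SMA replicate 1 than in both controls, where 36.8% of all tested genes were, whereas in replicate 2 only 21 were lower than both and 22 were higher than both, against 36.7% and 34.7% of all genes. In the same replicate 1 the summed choroid plexus markers were 407 FPKM against 765 and 720 FPKM in controls and 793 FPKM in SMA replicate 2, and the red cell markers 1740 FPKM against 2494, 2781 and 3415 FPKM, and the part of either in the members' values was not tested. This first SMA total library also had the highest correlation, over 15162 genes, between transcript length and the deviation of a gene from its mean over the 20 libraries (Spearman's rho 0.319, against -0.13 to 0.212 in the other 19). Ribosomal protein mRNAs are short, with a median longest transcript of 1059 nucleotides against 3172 over the genes tested, and length-corrected values of the members are given beside their genotype results at day 5, while the other gene lists are given uncorrected. The total FPKM share of the 81 members ran from 4.37% to 8.10% over the 20 libraries.

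Smn1 itself was measured in every library. In total RNA at day 7 it stood at 13.6, 14.1 and 16.7 FPKM in controls and at 11.9, 12.7 and 17.5 FPKM in SMA mice. At day 5 the values were 9.71 and 8.92 FPKM in controls and 9.55 and 10.1 FPKM in SMA mice. In polysomal RNA the values were 8.61 and 11 against 9.65 and 9.34 FPKM at day 5, and 13.3, 11.9 and 12.5 against 13.1, 14.2 and 13.3 FPKM at day 7. The groups overlapped in both fractions at both ages. The allele disrupts only part of the gene and the mice carry human SMN2, so gene-level FPKM does not check the genotype labels.

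Ribosomal protein mRNAs were among the abundant mRNAs of these brains, with wide differences between genes. In control total RNA at day 7, Rps29, a zinc-binding 40S protein, had the highest mean level with 2806 ± 301 FPKM (SD, n = 3), followed by Rps27 with 2557 ± 459 and Rps15a with 2403 ± 270 FPKM. The spreads of these 3 overlapped. At the low end, Rps4l had 7.76 ± 0.342 FPKM, Rpl7l1 17.4 ± 0.822 FPKM and Rpl29 64.5 ± 9.47 FPKM. Rps4l and Rpl7l1 are paralogues of Rps4x and Rpl7, whose means were 684 ± 56.8 and 919 ± 85.5 FPKM. Over the day 7 control total libraries the median 40S mRNA was above the median 60S mRNA by 0.20 to 0.23 on the log2 scale.

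The first comparison asked how the level of each mRNA relative to other RNAs differed between polysomal and total RNA in control brains. FPKM is scaled within each library, so the values do not give the amount of an mRNA on polysomes. A shift shared by most mRNAs would not show in any comparison here. Polysome association, the log2 difference between polysomal and total RNA that the study calls translation efficiency (TE), was negative for nearly all members. At day 7 the median was -0.82, a 0.566-fold level in polysomal RNA, while the median over all tested genes was 0.05. With limma, 77 of 81 members were lower in polysomal than in total RNA at an unadjusted p under 0.05, the threshold of the study, where 10.6% of all tested genes were. After Benjamini-Hochberg adjustment 67 remained lower, against 4.15% of all genes. At day 5, with 2 replicates, the median was -0.73 and 59 members were lower, against 13.6% of all genes, and 1 of them (Rps2) passed after adjustment, against 1.2% of all genes. All 59 were also among the 77 of day 7. The day 5 count rested on both total libraries: without control total replicate 1 it was 20 in either direction (9.15% of all genes) and without replicate 2 it was 26 (10.8%), at medians of -0.69 and -0.80, with the lone library assumed to vary like the other group.

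**Figure D1:**
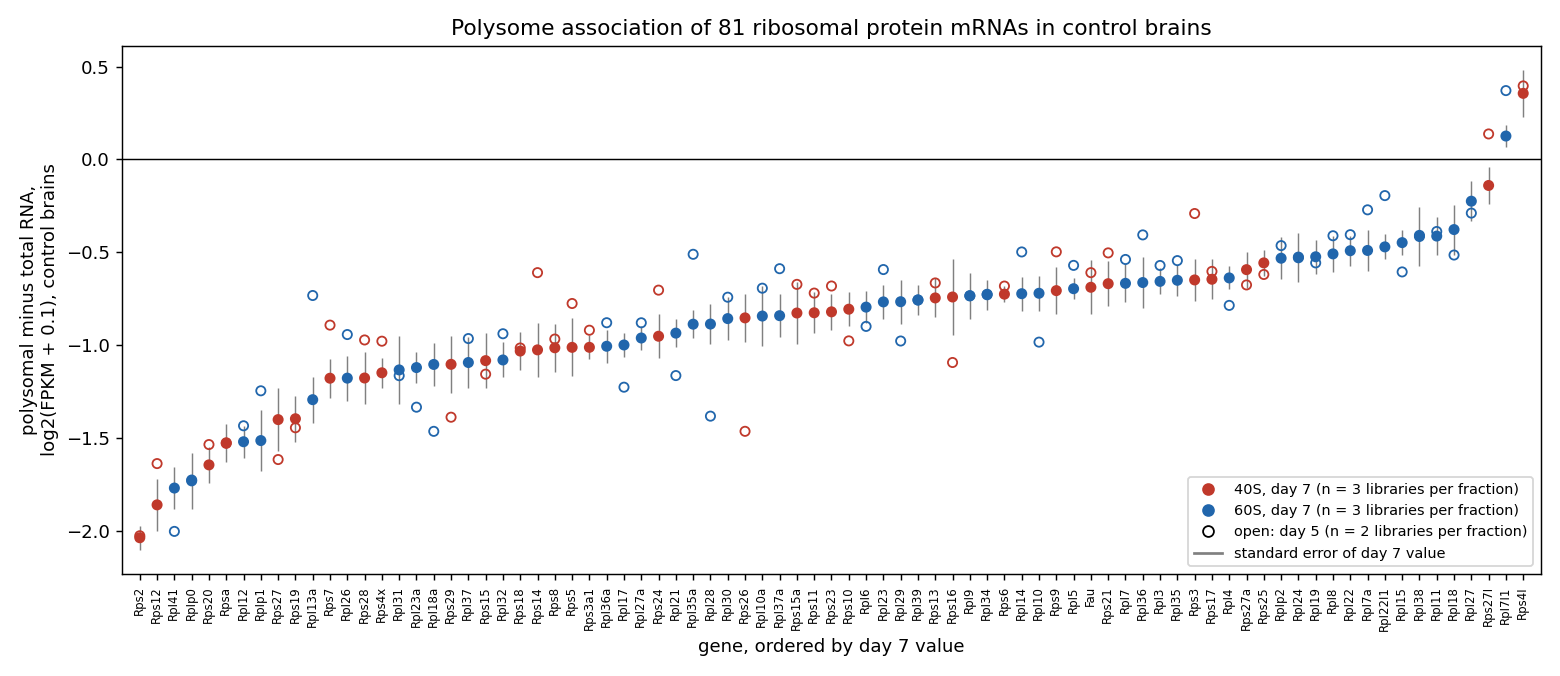
Polysome association of each member in control brains, as the log2(FPKM + 0.1) difference between polysomal and total RNA (y axis), with genes ordered by their day 7 value (x axis). Filled points are day 7 with standard errors, open points are day 5, and colours mark 40S and 60S. Values run from -2.04 for Rps2 to 0.36 for Rps4l at day 7, and most day 5 points lie near their day 7 point.

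The lower relative level in polysomal RNA was graded from gene to gene. Rps2, a core 40S protein at the mRNA entry side, had the lowest association at day 7, -2.04 ± 0.06 (standard error, adjusted p = 0.00057). Its level was 356, 324 and 363 FPKM in the 3 control total libraries and 89.6, 81.5 and 82.4 FPKM in the polysomal ones. No polysomal library came near a total library. At day 5 the difference was -2.03 ± 0.08 (adjusted p = 0.0098). Rps12 followed with -1.86 ± 0.14 (adjusted p = 0.0048), though an expressed copy, Rps12-ps3, with a mean of 252 FPKM over the 20 libraries, may share its reads. Rpl41, which encodes a very short peptide of the 60S subunit, stood at -1.77 ± 0.11 (adjusted p = 0.0031). Rplp0, the base of the ribosomal stalk that recruits elongation factors, stood at -1.73 ± 0.15 (adjusted p = 0.0063), and Rps20 at -1.65 ± 0.10 (adjusted p = 0.0025). With each library left out in turn Rps2 ran from -2.09 to -2.01 and Rps12 from -1.94 to -1.75, while the SEs of Rps12, Rpl41, Rplp0 and Rps20 overlapped, so the order of these 4 is not resolved.

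At the other end, 4 members did not follow the rest. Rps4l stood at 0.36 ± 0.13 (adjusted p = 0.16), with 7.53, 8.15 and 7.59 FPKM in the total and 9.60, 8.70 and 11.8 FPKM in the polysomal libraries, so that all polysomal values lay above all total values. It was the only member called higher in polysomal RNA at day 7, where 14.8% of all genes were. At day 5, where 12.3% of all genes were higher, Rps4l was again called, at 0.40 ± 0.07 (adjusted p = 0.12), together with Rpl7l1 at 0.37 ± 0.09 (adjusted p = 0.15). Rpl7l1 was 0.13 ± 0.06 at day 7 (adjusted p = 0.26). Rps27l stood at -0.14 ± 0.10 at day 7 and 0.14 ± 0.11 at day 5, and its total and polysomal libraries overlapped at both ages. Rpl27, the one of these 4 that is not a paralogue, stood at -0.22 ± 0.11 at day 7 (adjusted p = 0.27), and under quantile normalization it stood at 0.10. Rpl18 came next with -0.38 ± 0.13 and passed the unadjusted threshold (adjusted p = 0.16). Without each day 7 library in turn, Rps4l lost its call in 5 of 6 cases (range 0.23 to 0.45). Rpl18 lost it in 4 of 6 (-0.48 to -0.28). Over the same 6 cases Rpl7l1 ran from 0.09 to 0.16, Rps27l from -0.21 to -0.06 and Rpl27 from -0.32 to -0.17. When replicate number was fitted as a block Rps4l lost its call, Rpl7l1 was called higher and Rpl27 lower, at the same log2 differences.

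The order of the members was similar at both ages. Over the 81 genes, Spearman's rho between the day 7 and day 5 associations was 0.858, which is a description across genes from separate libraries, since genes are not independent replicates. Association at day 7 had a rho of -0.03 with transcript length and of -0.35 with the level in control total RNA, a measure that shares the total libraries with it. The median association was -0.90 for 40S and -0.76 for 60S mRNAs at day 7, and -0.83 and -0.73 at day 5. With 1 library left out, the 40S median minus the 60S median at day 7 ran from -0.21 to -0.10. This difference was smaller in size under quantile normalization. With 32 of 34 and 45 of 47 members called lower at day 7, the counts of both subunits were alike, and both ranges were wide (40S from -2.04 to 0.36, 60S from -1.77 to 0.13).

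Other gene lists with related roles are set beside the members, with no test of the difference between lists. Of all tested genes, 10.6% were lower and 14.8% higher in polysomal RNA at day 7. Among 26 other TOP mRNAs, which encode elongation factors, initiation factor subunits and similar proteins, 12 were lower and 3 higher in polysomal RNA at day 7, with a median of -0.16. The 77 mRNAs of mitochondrial ribosomal proteins, which build the separate ribosome of mitochondria, had a median of 0.15, with 26 higher and 5 lower. The 52 ribosome biogenesis factors had a median of 0.13, with 20 higher and 1 lower, and the 20 mTOR and TOP regulators a median of 0.03, with 4 higher and 2 lower. The 15 members for which the study lists primers, a choice made on these samples and thus not independent evidence, were all lower, with a median of -0.96.

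The second comparison asked whether these mRNAs differed between SMA and control brains at the early-symptomatic stage. In polysomal RNA the members were lower in SMA mice, with a median log2 difference of -0.40 (0.756-fold), where all tested genes had a median of -0.01. For 71 of 81 members both SMA libraries lay below both control libraries, and for none above, while 26.6% of all tested genes had SMA libraries wholly below. At an unadjusted p under 0.05, 31 members were lower and none higher, against 6.82% of all genes lower. By limma none passed after adjustment. The 31 were made up of 16 of 34 genes of the 40S and 15 of 47 of the 60S subunit, with medians of -0.44 and -0.40. In SMA replicate 1, 73 members were below both controls and none above, and in replicate 2, 73 were below and 2 above, where 34.4% and 39% of all genes were below. The direction of the median held without any library (-0.33 to -0.48), but the count of calls did not: it was 7 without SMA replicate 1 (3.14% of all genes were lower), 0 without SMA replicate 2, 15 without control replicate 1 (4.82%) and, without control replicate 2, 39 lower (12.6%) and 1 higher. It also moved with the processing. Under quantile normalization 9 of 81 were lower (median -0.22), near the 7.77% of all genes, without the filter on low values 18, against 4.16%, and in a single model over all 20 libraries 52, against 13%.

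The 4 largest differences among those called belonged to Rpl22l1, Rpl35a, Rps21 and Rps15a. Rpl22l1, the paralogue of Rpl22, stood at 270 and 215 FPKM in controls and at 143 and 117 FPKM in SMA mice, a log2 difference of -0.90 ± 0.18 (adjusted p = 0.38). Rpl35a, a 60S protein whose loss causes Diamond-Blackfan anaemia in humans, stood at 208 and 163 FPKM in controls and at 126 and 95.7 FPKM in SMA mice, a difference of -0.74 ± 0.22 (adjusted p = 0.39). The groups of both genes did not overlap. Rps21, a small protein of the 40S subunit, fell from 1005 and 977 FPKM to 668 and 553 FPKM, a difference of -0.71 ± 0.21 (adjusted p = 0.39). Rps15a, also of the 40S subunit, fell from 1012 and 971 FPKM to 663 and 591 FPKM, a difference of -0.66 ± 0.20 (adjusted p = 0.39). For Rps21 and Rps15a the control pairs were nearly equal and far above the SMA pairs. With each of the 4 libraries left out in turn, Rpl22l1 ran from -1.06 to -0.73 and Rpl35a from -0.94 to -0.54. Rps21 ran from -0.84 to -0.57 and Rps15a from -0.75 to -0.58. Of the other 27 called members, Rps27l (-0.53 ± 0.09), Rpl35 (-0.64 ± 0.11) and Rpl37 (-0.48 ± 0.09) had the lowest p-values. The range over all 81 was -0.90 to 0.21, with Rpl28 at the upper end.

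**Figure D2:**
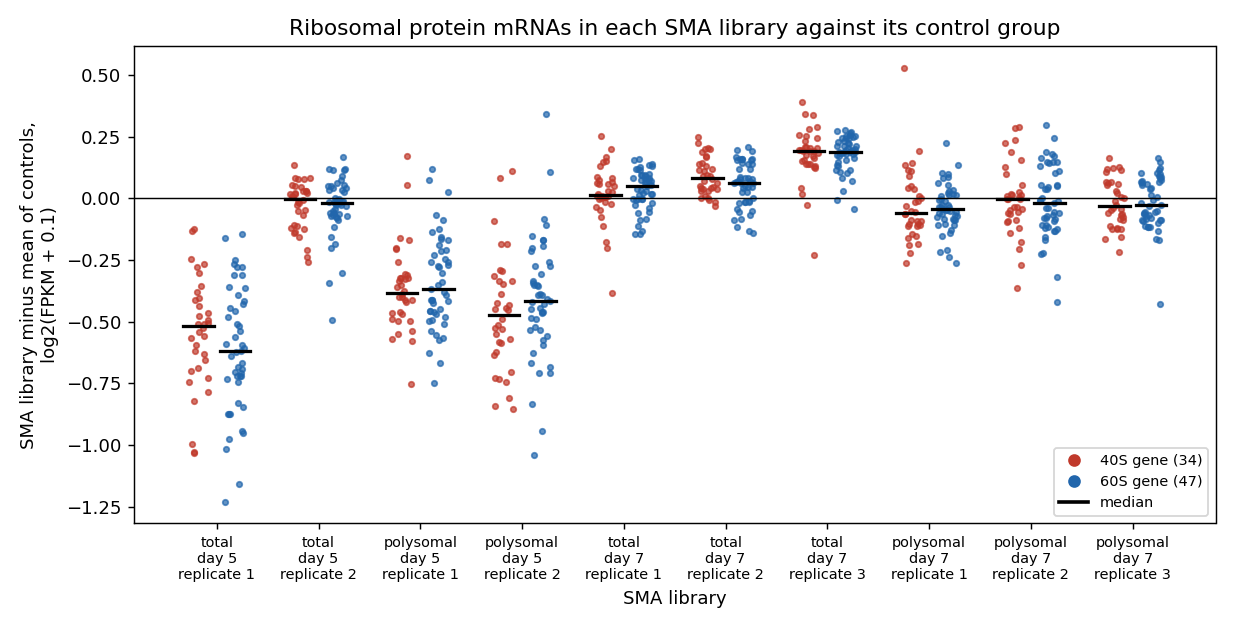
Difference of each member in each SMA library from the mean of its control group, on the log2(FPKM + 0.1) scale (y axis), for the 10 SMA libraries (x axis). Points are genes, coloured by subunit, and bars are medians. The medians over all members are -0.57 and -0.02 in the day 5 total libraries, -0.38 and -0.44 in the day 5 polysomal libraries, and between -0.05 and 0.19 at day 7.

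In total RNA at day 5 the difference rested on 1 of the 2 SMA libraries. The median over the members was -0.30 with both SMA libraries, and 21 members had SMA libraries wholly below the controls, close to the 22.5% of all tested genes. Rpl22l1 alone was called lower, against 3.89% of all genes. Its level was 304 and 249 FPKM in controls and 167 and 196 FPKM in SMA mice, a difference of -0.61 ± 0.16 (adjusted p = 0.55), so that here too both SMA libraries lay below both controls. Without SMA replicate 1 the median over the members was -0.02, and without SMA replicate 2 it was -0.57. The count was 43 without SMA replicate 2, where 13.3% of all genes were lower, and 0 without any of the other 3 libraries, and the call of Rpl22l1 was lost in 3 of these 4 cases. Over these 4 cases the difference of Rpl22l1 ran from -0.75 to -0.46. After length correction and without SMA replicate 1 the median over the members was 0.08. Quantile normalization gave 0 calls and a median of -0.17, the replicate block 0 calls, and a single model over all 20 libraries 21, against 9.75% of all genes.

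Transcript length moved with both early-symptomatic comparisons. Over 13067 protein-coding genes the SMA difference had a Spearman's rho with length of 0.556 in total and 0.449 in polysomal RNA, and the 3267 shortest of these genes, of up to 2277 nucleotides, had a median of -0.21 in both. Of the 81 members, 69 belong to these. After correction of each library for length, the medians over the members were -0.13 in total and -0.28 in polysomal RNA, and 16 members were called lower in polysomal RNA, against 5.66% of all genes under this correction. Without this correction, the mitochondrial ribosomal proteins had medians of -0.32 in total and -0.28 in polysomal RNA. In total RNA 7 of 77 were lower, against 3.89% of all genes. In polysomal RNA 21 of 77 were lower and none higher, against 6.82% lower. Among them, Mrps21 stood at -0.76 ± 0.17 and Mrpl52 at -0.62 ± 0.20 in polysomal RNA, and Mrps18b at -0.62 ± 0.19 and Mrpl24 at -0.51 ± 0.08 in total RNA (unadjusted p from 0.0054 to 0.045). At day 7, rho with length was -0.06 in total and -0.11 in polysomal RNA.

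The remaining companion lists at day 5 are given by their counts. Of all genes, 3.89% were called lower in total and 6.82% in polysomal RNA. Of the other TOP mRNAs, 3 of 26 were lower in polysomal RNA (median -0.24), among them Naca, a ribosome-bound chaperone subunit, at -0.39 ± 0.09 and Eif3k at -0.34 ± 0.11. Of the 52 biogenesis factors, 3 were lower and 1 higher (median -0.11), with Nop10, a protein of the pseudouridylation particles, at -0.58 ± 0.07, Nmd3, the 60S export adaptor, at -0.35 ± 0.08, and Rrp1b at 0.43 ± 0.12. Mtor, the kinase itself, was higher by 0.32 ± 0.10 in polysomal and 0.36 ± 0.09 in total RNA (unadjusted p of 0.036 and 0.02), and no other gene of the 20 regulators passed in either. In total RNA, 1 biogenesis factor was higher (Gnl2, 0.28 ± 0.09) and 3 were lower, with Polr1e at -0.43 ± 0.09 and Gnl3 at -0.34 ± 0.09, while none of the other TOP mRNAs was called. Adjusted p was above 0.05 for all of these.

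**Figure D3:**
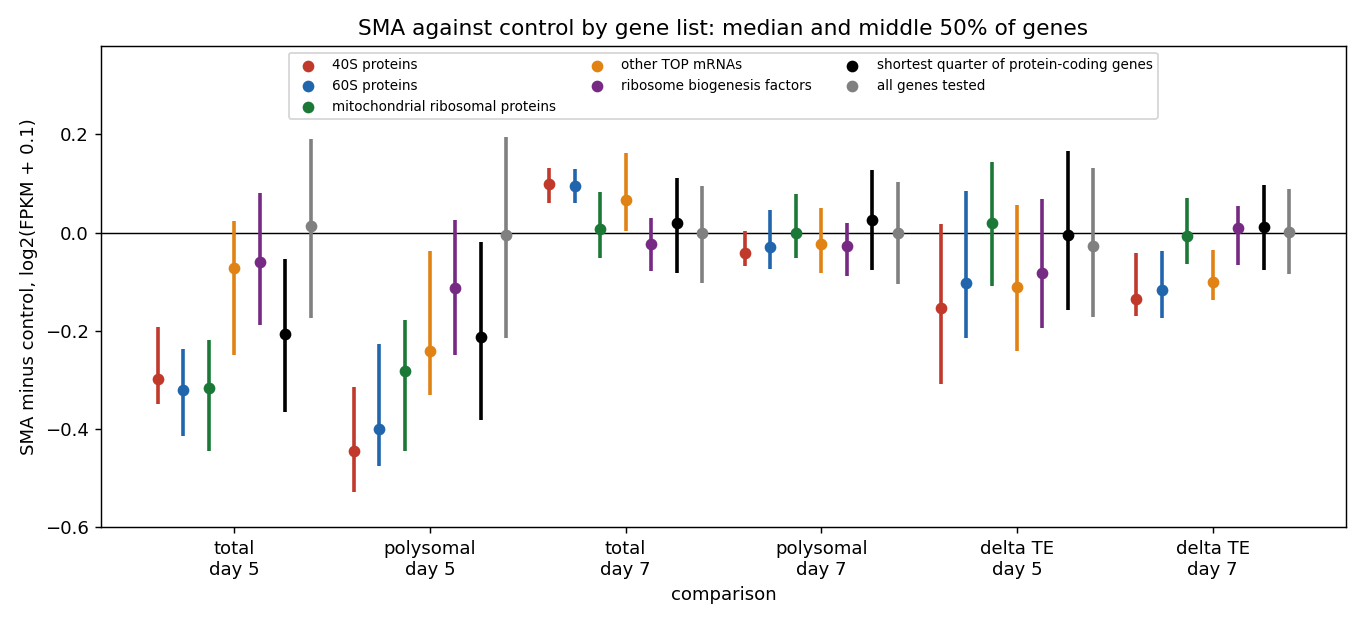
Median (point) and middle 50% (line) of the log2(FPKM + 0.1) difference between SMA and control for 7 gene lists (colours), in total and polysomal RNA and for the change in TE, at both ages (x axis). At day 5 the 40S and 60S genes have medians between -0.30 and -0.44 in both fractions, beside -0.32 (total) and -0.28 (polysomal) for mitochondrial ribosomal proteins and -0.21 for the 3267 shortest protein-coding genes, and at day 7 they are at 0.10 in total and between -0.04 and -0.03 in polysomal RNA.

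By day 7, late in the disease, the members were close to control levels in both fractions. In total RNA the median difference was 0.10 (1.07-fold), 7 members had SMA libraries wholly above the controls and none below, against 7.63% of all genes above, and 2 were called higher, against 4.84% of all genes. Rpl3, a core 60S protein near the peptidyl transferase centre, stood at 362, 324 and 368 FPKM in controls and 391.6, 391.9 and 422 FPKM in SMA mice, a difference of 0.20 ± 0.07 (adjusted p = 0.47). Rpl4 differed by 0.17 ± 0.07 (adjusted p = 0.52). In both, every SMA library lay above every control library. SMA replicate 3 was the highest, with 65 of 81 members above all 3 controls, against 30 in replicate 2 and 16 in replicate 1, where 31.3%, 25.7% and 23.4% of all genes were. The count was 0 without control replicate 1, control replicate 2 or SMA replicate 2, 1 without SMA replicate 3 and 6 without control replicate 3, and the calls of Rpl3 and Rpl4 were each lost in 5 of 6 cases. It was also 0 under quantile normalization and in a single model over all libraries. The share of all genes is not given for these settings, so these counts are no result about the members as a group. The median ran from 0.04 without control replicate 2 to 0.14 without control replicate 3. With each library left out in turn, Rpl3 ran from 0.14 to 0.23 and Rpl4 from 0.13 to 0.22.

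In late-symptomatic polysomal RNA the median was -0.04 (0.973-fold), and 1 member was called in each direction, against 5.35% of all genes higher and 5.38% lower. Rpl28 stood at 131, 117 and 124 FPKM in controls and at 145, 152 and 135 FPKM in SMA mice, a difference of 0.21 ± 0.07 (adjusted p = 0.38). Rpl22l1 stood at 216, 236 and 205 FPKM in controls and at 182, 164 and 163 FPKM in SMA mice, a difference of -0.37 ± 0.08 (adjusted p = 0.25). For both genes the groups did not overlap. Rpl28 lost its call without 4 of the 6 libraries (range 0.17 to 0.26), Rpl22l1 without none (-0.42 to -0.31). The count of members called was 4 without control replicate 1, 5 without control replicate 2 and 1 without control replicate 3, SMA replicate 1 or SMA replicate 2. It was 5 under quantile normalization. The share of all genes is not given for these settings, so these counts are no result about the members as a group. The median ran from -0.09 without control replicate 2 to 0.01 without control replicate 3 and so had no stable sign. The 40S and 60S medians were 0.10 and 0.10 in total RNA and -0.04 and -0.03 in polysomal RNA.

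Among the companion lists at day 7, Pabpc1, the poly(A)-binding protein, was higher by 0.32 ± 0.12 in total and 0.30 ± 0.11 in polysomal RNA, and Eif4b, an initiation factor, by 0.23 ± 0.05 and 0.13 ± 0.05. These were 2 of the 5 other TOP mRNAs called higher in total RNA and both of the 2 in polysomal RNA, of 26. Of all genes, 4.84% were called higher in total RNA, and 5.35% higher and 5.38% lower in polysomal RNA. The mitochondrial ribosomal proteins had 1 lower in total RNA (Mrpl4, -0.14 ± 0.05) and 4 higher and 2 lower in polysomal RNA, with Mrps27 at 0.22 ± 0.08, Mrps34 at 0.21 ± 0.06, Mrpl24 at -0.24 ± 0.09 and Mrpl36 at -0.20 ± 0.07. Of the biogenesis factors, Polr1b (-0.29 ± 0.07) and Utp6 (-0.23 ± 0.09) were lower in total RNA, and in polysomal RNA Utp6 was lower (-0.30 ± 0.10) and Nop56 higher (0.24 ± 0.09). Of the regulators, Rheb (0.13 ± 0.05) and Rps6kb1 (0.12 ± 0.04) were higher in total RNA, and Eif4ebp1, the mTOR-controlled repressor of cap-dependent initiation, by 0.80 ± 0.19 and Cnbp, which binds TOP motifs, by 0.13 ± 0.03 in polysomal RNA. None of these passed after adjustment.

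The change in TE, the SMA difference in polysomal RNA minus that in total RNA, asked whether polysome association itself differed between genotypes. At day 7 its median over the members was -0.13 (0.912-fold) and 0.00 over all tested genes. Of 81 members, 4 were called lower and none higher, against 0.977% of all genes lower, and none passed after adjustment. All 4 were 60S genes. Polysomal and total libraries that share a replicate number were correlated at day 7 in well expressed genes (0.30 to 0.54) but not throughout over the 81 members (-0.37 to 0.24). When that number was fitted as a block, 13 members were called lower and none higher, against 2.28% of all genes lower, again with none past adjustment. The 13 held the same 4 genes and also Rpl10, Rpl12, Rpl14, Rpl22, Rpl4, Rps13, Rps20, Rps21 and Rps4x, at log2 differences from -0.25 (Rps21) to -0.15 (Rpl4). With length correction as well the count was 11, against 2.14% of all genes, with length correction alone 7, against 0.983%, and in a single model over all libraries without the block 1, against 0.761%. Without the block, Rpl22l1 stood at -0.39 ± 0.11, Rpl17, which lines the exit tunnel, at -0.25 ± 0.08, Rpl21 at -0.23 ± 0.09 and Rpl3 at -0.20 ± 0.08, each with an adjusted p that rounded to 1. The count was 2 without SMA replicate 2 or SMA replicate 3 and between 4 and 6 without any other, and Rpl22l1 kept its call in all 6 cases. These counts are printed without the share of all genes and so are no result about the members as a group. The total level of Rpl17 was 578, 551 and 627 FPKM in controls and 612, 653 and 663 FPKM in SMA mice, and its polysomal level was 281, 297 and 299 FPKM in controls and 267, 269 and 276 FPKM in SMA mice. For Rpl17 the total libraries overlapped, whereas all SMA polysomal values were below all control ones. For Rpl3, which was higher in total RNA, the polysomal levels were 234, 212 and 222 FPKM in controls and 218, 220 and 228 FPKM in SMA mice. The other TOP mRNAs had a median of -0.10 with 2 lower, Eif3e (-0.29 ± 0.09) and Tpt1 (-0.24 ± 0.09), both also unadjusted. The mitochondrial ribosomal proteins had a median of -0.01 with none called, and of the biogenesis factors Nop56 was higher (0.30 ± 0.12) and Nop58 lower (-0.29 ± 0.13).

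At day 5 no member had an altered TE, by limma at an unadjusted p under 0.05, where 2.32% of all genes did, and the median was -0.12. After length correction it was -0.14 with 1 member called. This median changed sign with the SMA replicate left out of both fractions. Without replicate 1 it was -0.43, and without replicate 2 it was 0.21. Of the companion lists, the biogenesis factors Polr1e (0.31 ± 0.10), Gnl3 (0.29 ± 0.11) and Tsr1 (-0.55 ± 0.20) passed the unadjusted threshold. Over the 81 members, the change in TE at day 5 and that at day 7 had a Spearman's rho of 0.06, from separate libraries. Of the 15 primer genes, 6 were lower in polysomal RNA at day 5, beside 31 of all 81 members and 6.82% of all genes, none was called in total RNA at either age, and Rpl17 was called for the change in TE at day 7. The 6 were Rpl12 (-0.48 ± 0.09), Rpl36 (-0.64 ± 0.19), Rps12 (-0.64 ± 0.17), Rps4x (-0.46 ± 0.15), Rps6 (-0.35 ± 0.09) and Rps9 (-0.51 ± 0.14).

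The difference between stages was tested directly as the SMA difference at day 7 minus that at day 5. In polysomal RNA 43 members were called higher and none lower, against 6.81% of all genes higher, with a median of 0.35 and no member past adjustment. In total RNA 4 were called higher (Rpl22, Rpl22l1, Rpl35a and Rps27l), against 4.55% of all genes, with a median of 0.40. Rpl22l1 differed by 0.63 ± 0.17 in total and 0.53 ± 0.18 in polysomal RNA. Without SMA replicate 1 of day 5 the total RNA median was 0.12, and with length correction as well 0.02, whereas without SMA replicate 2 of day 5 it was 0.67. In polysomal RNA the count was 25 without control replicate 1 (3.49% of all genes) and 12 without SMA replicate 2 of day 5 (3.57%). The median and count were 0.22 and 16 after length correction, against 4.31% of all genes, and 0.18 and 15 under quantile normalization, against 7.66%. In total RNA a single model over all libraries gave 19 calls, against 5.73% of all genes. Quantile normalization gave 2 calls there, a count without the share of all genes and so no result about the members as a group. For the change in TE no member differed between stages at an unadjusted p under 0.05, where 2.75% of all genes did, and the median was -0.03. Without SMA replicate 1 of day 5 this median was 0.28 and without SMA replicate 2 of day 5 it was -0.33, so it had no stable sign.

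The next comparison followed the members with age in control brains. From day 5 to day 7 the median over the members was -0.20 in total RNA (0.872-fold) and -0.23 in polysomal RNA (0.853-fold), beside -0.03 over all tested genes in both. In total RNA 31 were lower and 5 higher, against 20.1% of all genes in each direction, and 19 and 1 after adjustment, against 9.46% and 11.8%. In polysomal RNA 30 were lower and 1 higher, against 21.4% and 20.7%, and 12 and 1 after adjustment, against 8.3% and 12.3%. Length moved with age too: over 13067 protein-coding genes rho with length was 0.12 in total and 0.22 in polysomal RNA, and the 3267 shortest had medians of -0.08 and -0.18. After length correction the medians over the members were -0.16 and -0.14, with 32 lower and 11 higher in total RNA, against 19.1% and 21.4% of all genes under the same correction, and 29 lower and 7 higher in polysomal RNA, against 21.7% and 20.6%. Under quantile normalization the medians were -0.30 and -0.35. A total of 22 members were lower in both fractions, against 13.1% of all genes. In either direction 23 were called in total RNA without control replicate 1 of day 5 (27.7% of all genes) and 22 without control replicate 1 of day 7 (33.2%). In polysomal RNA 19 were called without control replicate 1 of day 5 (28.6%) and 20 without control replicate 2 of day 7 (31.6%), so that each of these 4 shares was close to or below that of all genes. The median was -0.22 for 40S and -0.20 for 60S genes in total RNA, and -0.28 and -0.21 in polysomal RNA. With 1 library left out, the polysomal 40S median minus the 60S median ran from -0.10 to 0.10 and so had no stable sign.

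Changes with age ranged from -1.70 to 1.07 in total and from -1.36 to 1.36 in polysomal RNA. Rpl28, a 60S protein, fell from 754 and 739 FPKM to 223, 203 and 264 FPKM in total RNA, a difference of -1.70 ± 0.13 (adjusted p = 0.0097), and stood at -1.21 ± 0.21 in polysomal RNA (adjusted p = 0.033). Rpl35, which sits at the exit tunnel, fell from 481 and 424 FPKM to 231, 208 and 239 FPKM in total RNA, a difference of -0.999 ± 0.09 (adjusted p = 0.013), and stood at -1.11 ± 0.10 in polysomal RNA (adjusted p = 0.014). The day 7 values of both genes lay far below those of day 5. Rps14, a core protein of the 40S platform, differed by -0.94 ± 0.17 and -1.36 ± 0.24 (adjusted p of 0.032 and 0.033), Rps16 by -0.81 ± 0.24 in total RNA (adjusted p = 0.08) and Rps3 by -1.06 ± 0.22 in polysomal RNA (adjusted p = 0.04). Against this trend, Rps29 rose from 1424 and 1244 FPKM to 2745, 2541 and 3133 FPKM in total RNA, by 1.07 ± 0.18 (adjusted p = 0.028), and from 431 and 600 FPKM to 1358, 1188 and 1363 FPKM in polysomal RNA, by 1.36 ± 0.22 (adjusted p = 0.03). Rps15a (0.60 ± 0.17), Rpl31 (0.41 ± 0.15), Rpl6 (0.31 ± 0.07) and Rps24 (0.26 ± 0.07) were also called higher in total RNA, without passing after adjustment. Rps15a and Rpl31 lost their calls without any 1 of the day 7 libraries. With each of the 5 libraries left out in turn, Rps15a ran from 0.51 to 0.66 and Rpl31 from 0.37 to 0.48. Rps16 ran from -1.01 to -0.66. Rps24 was named to complete the count, after its value was seen.

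**Figure D4:**
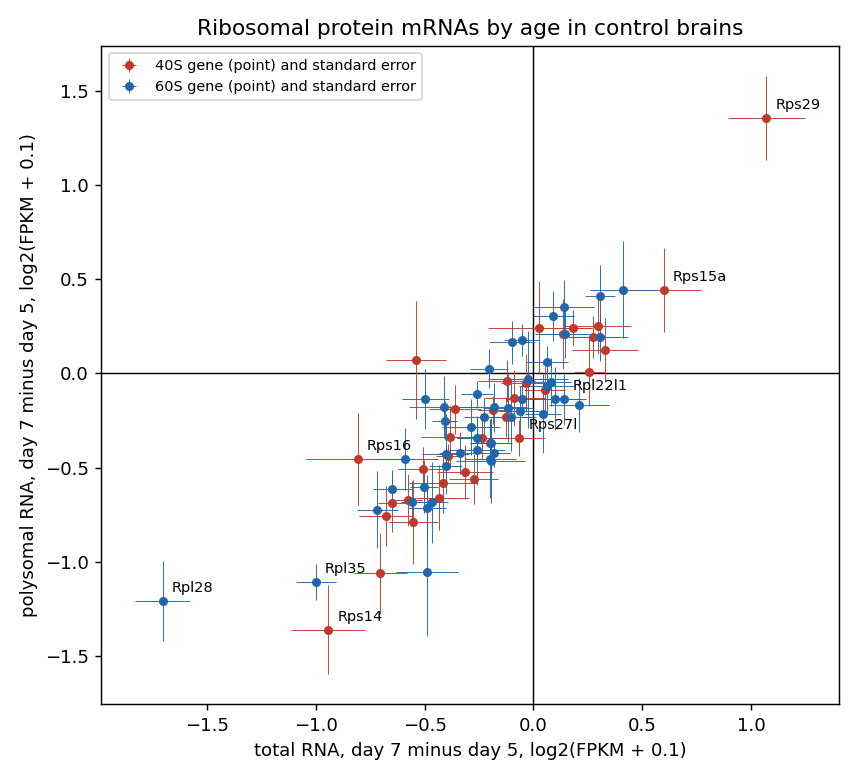
Change of each member from day 5 to day 7 in control brains in total RNA (x axis) and polysomal RNA (y axis), as log2(FPKM + 0.1) differences with standard errors, coloured by subunit. Most points lie below and left of 0, Rps29 is at the upper right (1.07 and 1.36), and Rpl28, Rpl35 and Rps14 are at the lower left.

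The companion lists with age are given by their counts, with no test of the difference between lists. Of all genes, 20.1% were lower and 20.1% higher in total RNA, and 21.4% lower and 20.7% higher in polysomal RNA. Of 52 biogenesis factors 26 were lower in total RNA and none higher (median -0.20), with Polr1c at -0.79 ± 0.16 and Rrp1b at -0.70 ± 0.16, and 24 were lower in polysomal RNA, with Polr1c at -1.36 ± 0.34 and Ebna1bp2 at -0.98 ± 0.14. Of 77 mitochondrial ribosomal proteins 28 were lower and 6 higher in total RNA (median -0.13), and 37 and 3 in polysomal RNA (median -0.32). Mrpl18 (-0.86 ± 0.08) and Mrpl47 (-0.82 ± 0.11) fell in total RNA, Mrps14 (-0.93 ± 0.10) and Mrpl2 (-0.87 ± 0.06) in polysomal RNA, and Mrps2 (0.64 ± 0.07 and 1.01 ± 0.15) and Mrps36 (0.59 ± 0.08 and 0.74 ± 0.15) rose in both. Of the other TOP mRNAs 12 were lower and 3 higher in total RNA and 8 and 5 in polysomal RNA. Vim, which encodes vimentin, was lower in both (-1.27 ± 0.27 and -1.10 ± 0.22), Eef1g in total RNA (-0.58 ± 0.08) and Eef1d in polysomal RNA (-0.68 ± 0.18), while Tpt1 rose by 0.38 ± 0.07 and 0.61 ± 0.09, Fbl by 0.31 ± 0.11 in total RNA and Eif3f by 0.68 ± 0.10 in polysomal RNA. Of the 20 regulators 3 were higher and 4 lower in total RNA and 7 and 3 in polysomal RNA. Larp1, the protein that binds and represses TOP mRNAs, was higher at day 7 by 0.58 ± 0.04 in total RNA (adjusted p = 0.0081) and 0.95 ± 0.11 in polysomal RNA (adjusted p = 0.021). Tsc2, an inhibitor upstream of mTOR, rose by 0.28 ± 0.06 in total RNA and Eif4ebp2 by 1.07 ± 0.21 in polysomal RNA, whereas Tia1 (-0.55 ± 0.09 and -0.61 ± 0.07) and Cnbp (-0.33 ± 0.05 and -0.43 ± 0.06) fell in both.

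Paralogues were set beside their partners, with no test of the difference between them. Rpl22l1 was close in level to Rpl22, with 303 ± 11.8 against 375 ± 24.5 FPKM (SD, n = 3) in control total RNA at day 7, and their associations were -0.47 ± 0.07 and -0.49 ± 0.08. In the genotype comparisons Rpl22 was -0.26 ± 0.19 in total and -0.40 ± 0.11 in polysomal RNA at day 5, and 0.14 ± 0.06 and -0.07 ± 0.07 at day 7, beside -0.61, -0.90, 0.02 and -0.37 for Rpl22l1. Rpl22l1 was the member called lower in most genotype comparisons, 4 of 6, but these are not separate results. The change in TE at day 7 is the polysomal difference (-0.37) minus the total one (0.02) from the same libraries, so its call largely repeats the polysomal call. Rpl22l1 was outside the calls in total RNA at day 7, with 317, 294 and 299 FPKM in controls and 309, 279 and 336 FPKM in SMA mice, and for the change in TE at day 5 (-0.29 ± 0.26).

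Rps27l, a target of p53, stood at 110 ± 11.9 FPKM against 2557 ± 459 FPKM for Rps27 in control total RNA at day 7. Their associations lay far apart, -0.14 ± 0.10 against -1.40 ± 0.17. In SMA polysomal RNA at day 5 Rps27l fell from 119 and 132 FPKM to 89.2 and 84.7 FPKM, a difference of -0.53 ± 0.09 (adjusted p = 0.35), while Rps27 stood at 651 and 1005 FPKM in controls and 647 and 662 FPKM in SMA mice (-0.31 ± 0.30), where the controls themselves differed widely. In total RNA at day 5 Rps27l was at 122 and 107 FPKM in controls and 55.8 and 95.7 FPKM in SMA mice (-0.64 ± 0.32). At day 7 it was 0.18 ± 0.08 in total and -0.05 ± 0.13 in polysomal RNA.

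Neither Rpl7l1 nor Rps4l was called between genotypes in either fraction at either age. Rpl7l1 stood at -0.18 ± 0.08 in total and -0.32 ± 0.11 in polysomal RNA at day 5 and Rps4l at -0.15 ± 0.24 and -0.04 ± 0.12. With age Rps4l fell in both fractions, with -0.65 ± 0.07 in total RNA (adjusted p = 0.014) and -0.69 ± 0.15 in polysomal RNA (adjusted p = 0.046), and its partner Rps4x was -0.20 ± 0.10 and -0.37 ± 0.11. Rpl39l and Rpl3l, known from testis and muscle, were nearly absent. Rpl39l was between 0 and 0.53 FPKM and Rpl3l between 0 and 0.15 FPKM over the 20 libraries, too low for a comparison, against 646 ± 55 FPKM for Rpl39 and 351 ± 24 FPKM for Rpl3 in control total RNA at day 7.

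**Figure D5:**
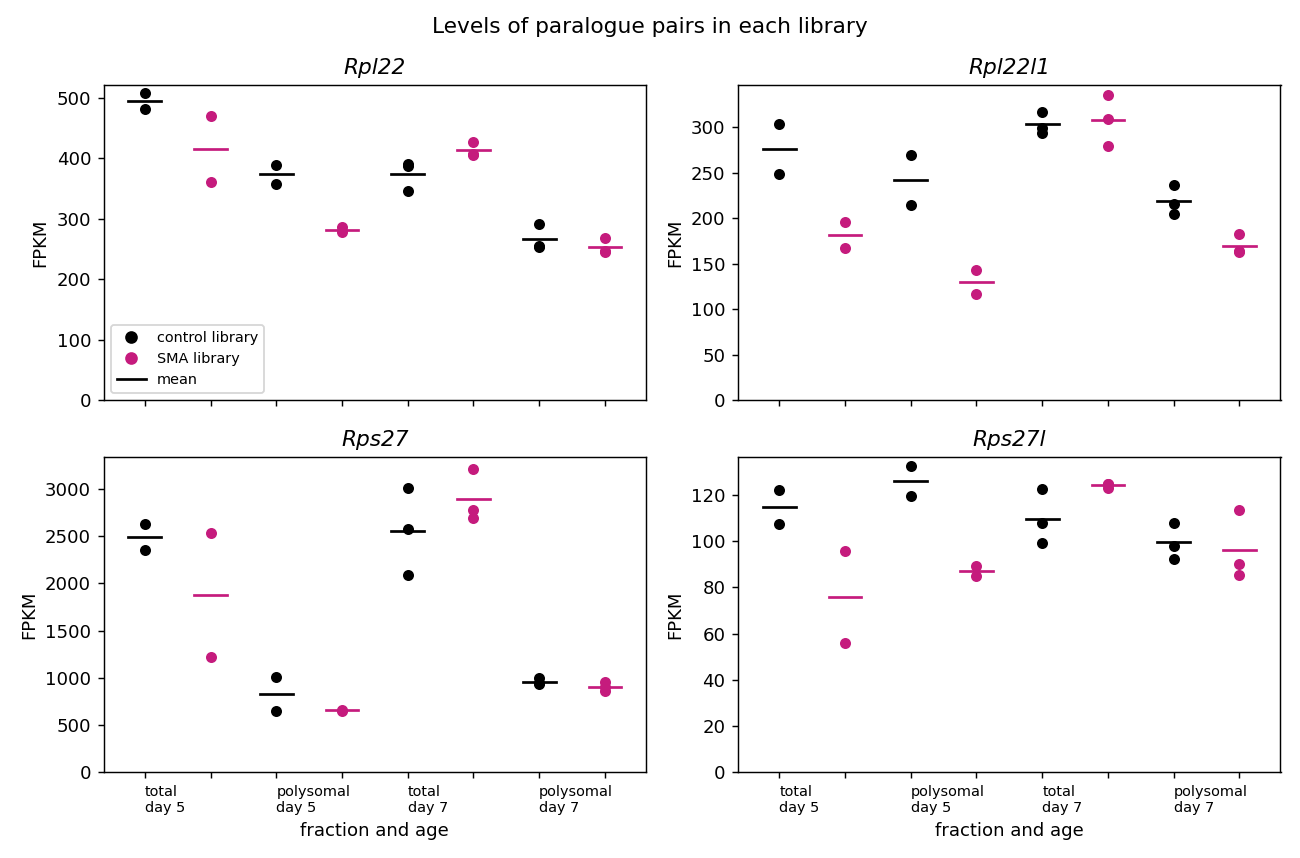
FPKM (y axis) of Rpl22 and Rpl22l1 and of Rps27 and Rps27l in each of the 20 libraries, by fraction and age (x axis), with control and SMA libraries as points and the group mean as a bar. SMA values of Rpl22l1 lie below the controls in every fraction and age except total RNA at day 7.

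Rpl13, a 60S protein left out of the members, was listed at 0 in both control polysomal libraries of day 5, beside 164 and 135 FPKM in SMA mice. In control total RNA at day 7 it was at 345, 353 and 349 FPKM, and in polysomal RNA at 170, 158 and 192 FPKM. Tubb3, a neuronal tubulin, was listed at 0 in the same 2 libraries and stood between 562 and 1051 FPKM in the other 18. No fold is given against these values. Pseudogenes are another limit on single genes. The table held 263 rows of ribosomal protein pseudogenes, 10 of them with a mean of at least 1 FPKM, and the split of reads between a gene and its copies is not visible in FPKM.

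Markers of cell types moved with some of these groups. At day 5, all 4 endothelial markers were lower in SMA total RNA (median -0.71) and 3 in polysomal RNA (-0.64), and their summed level was 69.3 and 61.3 FPKM in the control total libraries and 30.2 and 29.4 FPKM in those of SMA mice, led by Cldn5. Markers of proliferating cells, led by Cdk1, summed to 36.6 and 59.3 FPKM in the control total libraries and 23.9 and 26.9 FPKM in those of SMA mice, and to 55.3 and 62.4 against 24.8 and 26.5 FPKM in polysomal libraries, in which 4 of 5 were called lower. At day 7, when the members were near control levels, the 4 endothelial markers were again lower in both fractions (-0.70 and -0.80) and the proliferation markers had medians of -0.76 and -0.75 with none called. The part of any marker list in the ribosomal protein results was not tested. Of 5 neuronal markers, led by Stmn2, only Tubb3 was called at day 5, in polysomal RNA, where it was listed at 0 in controls. Of the 5 astrocyte, 6 oligodendrocyte, 5 microglial and 5 red cell markers, led by Aldoc, Mbp, C1qa and Hba-a1, at most 1 per list and fraction was called at day 5, and no marker of any list was at 0 in any library but Tubb3. The summed neuronal markers ran from 940 to 3444 FPKM over the 20 libraries, the lowest values being the 2 libraries with Tubb3 at 0. The 2 choroid plexus markers tested, with Ttr the most abundant, were both higher in SMA mice at day 7 (medians of 0.79 in total and 0.72 in polysomal RNA) and neither was called at day 5. At day 7 the summed astrocyte markers were 304, 355 and 350 FPKM in controls and 477, 437 and 392.4 FPKM in SMA mice in total RNA, and 410, 399 and 406 against 570, 559 and 468 FPKM in polysomal RNA. The groups did not overlap in either fraction, and Aldoc was the 1 of 5 markers called, at 0.77 ± 0.10 and 0.79 ± 0.09. Of the 5 microglial markers C1qa was higher in both (0.62 ± 0.13 and 0.47 ± 0.15), and in total RNA Aif1 was higher (0.29 ± 0.10) and P2ry12 lower (-0.41 ± 0.15).

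Markers also moved with age in the control libraries. From day 5 to day 7 the mean summed level of proliferation markers went from 48.0 to 26.7 FPKM in total RNA (1 of 5 called lower) and from 58.9 to 29.0 FPKM in polysomal RNA (4 of 5). The endothelial sums were 65.3 and 45.2 FPKM in total RNA (2 of 4 called lower) and 104 and 55.2 FPKM in polysomal RNA (1 lower and 1 higher). Both choroid plexus markers tested were lower in each fraction, with medians of -0.72 and -0.85. Neuronal markers were higher, 4 of 5 in total and 5 of 5 in polysomal RNA, the latter including Tubb3, and 3 of 5 microglial markers were higher in each fraction. The red cell sums were 2638 and 3844 FPKM in total RNA, where 3 of 5 markers were called higher.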

How the data were processed

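Total cytoplasmic and polysomal RNA of control and SMA brains was sequenced by the authors with a stranded total RNA kit, aligned to GRCm38.p4 with TopHat 2.0.14 and the Gencode M6 annotation, and deposited as FPKM per gene and library computed with Cufflinks 2.2.1, so the fragments behind a value, and thus its counting error, are unknown. Groups and replicate numbers came from the labels, and all 20 columns were used. Members and lists were chosen with earlier results of these data known.

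Values were analysed as log2(FPKM + 0.1), which understates changes of low genes, with limma 3.58.1 in R 4.3.3 (lmFit, eBayes with trend), over the 15247 genes averaging 1 FPKM or more. Each comparison used its own groups, and TE and stage differences were interaction terms. Called means an unadjusted p under 0.05, the threshold of the study, and adjusted p is Benjamini-Hochberg over all tested genes. The study used CuffDiff and Xtail, which need alignments or counts. Members were named by rule: extremes of level and association, the 4 largest called changes per comparison and direction with groups that did not overlap, paralogues, primer genes and the top 2 of each companion list. Alternatives were another pseudocount (1 FPKM), no filter, equal medians, quantile normalization, 1 model over all libraries, a lowess correction for transcript length (Gencode M21, longest transcript), a replicate block and each replicate left out. Length correction without SMA replicate 1 of day 5 was added after seeing the data. Deviations of same-numbered total and polysomal libraries correlated at 0.12 to 0.54 in the 9779 protein-coding genes averaging 5 FPKM or more and at -0.04 to 0.11 over all tested genes, and whether they share a brain is not given in the sources used here, so blocked values are printed where they change a call. The fits were tested on simulated data. Where nothing shows that replicates came from separate animals, p-values measure only the spread between these samples.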

Additional observations from a re-analysis of the deposited data

Results flagged for a closer look

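Each result here was picked out because the SMA difference at day 7 differed from that at day 5 by the interaction test of limma at an unadjusted p under 0.05, and none passed after adjustment. In polysomal RNA this held for 43 of 81 members, where 6.81% of all genes were higher, among them Rpl35a (0.60 on the log2 scale), Rps21 (0.58), Rps15a (0.54), Rpl22l1 (0.53) and Rpl3 (0.33), all with the day 7 difference above that of day 5. In total RNA it held for 4 of 81 members, a share near the 4.55% of all genes and thus no result about the members as a group, among them Rpl22l1 (0.63) and Rpl35a (0.62), and the median over the members was 0.12 without SMA replicate 1 of day 5. No group had 4 or more samples, so single libraries were not tested as outliers.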

How the results depend on the processing

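The negative medians of polysome association and of the early-symptomatic polysomal difference held in every alternative, and their sizes and the counts of calls did not. Counts of calls in this section are printed without the share of all genes, so they are no result about the members as a group. With quantile normalization the median association was -0.61 at day 7 (40S minus 60S -0.058) and -0.51 at day 5, the median polysomal difference at day 5 was -0.22 with 9 members called, and counts were 0 for total RNA at day 5 and 0 at day 7, 5 for polysomal RNA at day 7, and 2 and 15 for the stage difference in total and polysomal RNA (median 0.18). The median change with age was then -0.30 in total (40S minus 60S -0.049) and -0.35 in polysomal RNA, and Rpl27 turned from lower to higher association (0.10). With equal medians the day 5 association was -0.68. With length correction it was -0.79, the polysomal difference at day 5 -0.28 with 16 called, the change in TE had 1 call at day 5 and 7 at day 7, the 40S minus 60S change with age in total RNA was -0.034, and the polysomal stage difference 0.22 with 16 called. One model over all 20 libraries called 21 members in total and 52 in polysomal RNA at day 5, 0 and 1 at day 7, 2 and 1 for the change in TE at day 5 and day 7, and 19 for the stage difference in total RNA. Without the filter on low values 18 were called in polysomal RNA at day 5 and 1 in total RNA at day 7. At an adjusted p under 0.05 the counts were 1 for association at day 5, 20 and 13 with age in total and polysomal RNA, and 0 for every genotype and stage comparison. The causes were not tested.

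Replicate numbers were shared between groups. Between genotypes the same-numbered libraries were not correlated throughout (-0.30 to 0.20 in well expressed protein-coding genes), so the block is only an alternative there, while between fractions it is given beside the results it changed. With the replicate number as a block 0 members were called in total RNA at day 5, 1 in polysomal RNA at day 7 and 13 for the change in TE at day 7, and the 40S minus 60S change with age in total RNA was -0.0027. With the block and length correction together the day 5 association was -0.79, the polysomal difference at day 5 -0.28 with 15 called, and counts were 0 and 1 for total RNA at day 5 and day 7, 1 for polysomal RNA at day 7, 11 for the change in TE at day 7 and 2 for its stage difference. Length correction without SMA replicate 1 of day 5, chosen after seeing the data, gave 0 calls and a median of 0.079 in total RNA at day 5, 1 call for the change in TE, 1 call and 0.018 for the stage difference in total RNA, and 2 calls and 0.23 for that of TE.

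Leaving out 1 replicate at a time, the day 5 association had 20 to 65 calls and a median of -0.80 to -0.69. Calls ranged from 0 to 43 in total and 0 to 40 in polysomal RNA at day 5 (median -0.48 to -0.33), from 0 to 6 and 1 to 5 at day 7, from 0 to 3 (median -0.43 to 0.21) and 2 to 6 for the change in TE at day 5 and day 7, and from 22 to 31 and 19 to 36 with age. Stage differences had 1 to 65 calls in total RNA (median 0.12 to 0.67), 12 to 47 in polysomal RNA (0.30 to 0.46) and 0 to 22 for TE (-0.33 to 0.28). These ranges of calls, too, stand without the share of all genes and are no result about the members as a group. The 40S minus 60S median ranged from -0.21 to -0.10 and from -0.15 to -0.068 for association at day 7 and day 5, from -0.031 to -0.0027 and from -0.10 to 0.10 with age in total and polysomal RNA, and from 0.016 to 0.13 for the polysomal stage difference. Of 518 settings of 36 single-gene results, 398 kept direction and side of the threshold, 116 lost the call, 3 gained one and 1 reversed. FPKM hides the fragments behind each value, so no limit from depth can be given.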

Other observations

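Genes with the name of a ribosomal protein pseudogene (-ps) or with Gm and a number as name were left out of the following ranking. Over the 20 libraries, the remaining genes outside the members whose log2 level followed the mean of the members most closely were Cox7a2l (Pearson's r 0.975), Snhg6 (0.975), Snhg8 (0.972), 1110038B12Rik (0.968) and Eef1b2 (0.966). Snhg6 and Snhg8 are host genes of small nucleolar RNAs and Eef1b2 encodes an elongation factor subunit. These values are a description over libraries that differ in fraction, age and genotype, and all genes share the scaling of each library.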
